A study of Mus musculus with 12 samples.

Results

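The respiratory chain and the ATP synthase are assembled from subunits encoded in 2 genomes, and 98 protein coding genes for such subunits are described here in mouse pancreatic tumours. They were chosen by symbol: genes annotated as protein coding whose name starts with mt-, Ndufa, Ndufb, Ndufc, Ndufs, Ndufv, Sdha, Sdhb, Sdhc, Sdhd, Uqcr, Cox4, Cox5, Cox6, Cox7, Cox8 or Atp5, without the assembly factors Ndufaf and Sdhaf. Of 25619 genes present in all 3 deposited tables, 98 met this rule, 13 encoded in mitochondrial DNA and 85 in the nucleus. A further 17 genes matched by name but not by biotype, among them mt-Rnr1, mt-Rnr2, mt-Tp and processed pseudogenes of the subunit genes, and were left out. The rule used no measured value. By its wording it leaves out Cyc1 and Cycs, and it keeps Cox5b-ps, which the deposited annotation calls protein coding although its symbol marks a pseudogene.

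Total RNA of subcutaneous murine pancreatic ductal adenocarcinoma (PDAC) tumours was sequenced in bulk, in 12 libraries. There were 4 groups of 3 libraries: combination (agonistic CD40 antibody with anti-IL-1R1 antibody), CD40 agonist (agonistic CD40 antibody alone), anti-IL-1R1 (antibody against the interleukin-1 receptor IL-1R1 alone) and untreated tumours. The antibodies were given intraperitoneally, 2 times weekly, and the labels give neither strain, age nor tumour line. Whether replicates are separate mice is not stated, so p-values measure the spread between these libraries, which may be technical.

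Complexes I and II pass electrons from NADH and succinate to coenzyme Q, complex III passes them on to cytochrome c, and complex IV passes them to oxygen. Complexes I, III and IV pump protons, and ATP synthase, often called complex V, uses the proton gradient to make ATP. Mitochondrial DNA encodes the membrane-embedded core of complexes I, III, IV and V, while complex II is wholly nuclear. Pancreatic cancers are known for a dense stroma, poor oxygen supply and high glycolysis.

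Libraries held 27.8 to 53.3 M reads in genes, and each member passed the filter on low counts, under which 19436 genes were tested. The level used throughout is CPM, read counts relative to library totals that were scaled by TMM factors. The mitochondrially encoded members together took 1.33 to 2.38% of all reads and the nuclear members 0.769 to 1.00%. In bulk RNA, fewer cells of a type and less RNA per cell cannot be told apart. Several libraries stood apart before any comparison. Combination 1 and CD40 agonist 2 held skeletal muscle transcripts. Combination 3 and anti-IL-1R1 2 held more reads of genes with short coding sequences, and the reads of long mt-Nd5 relative to mt-Nd1 were 0.0862 in combination 3 and 0.174 in anti-IL-1R1 2, while the untreated libraries had 0.353, 0.363 and 0.380. CD40 agonist 1, CD40 agonist 3 and anti-IL-1R1 1, at 0.224, 0.277 and 0.323, were also below the untreated libraries by this ratio.

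No member was called in any of the 6 comparisons by the edgeR quasi-likelihood test at a Benjamini-Hochberg adjusted p under 0.05, nor by DESeq2 or limma voom. DESeq2 called 1035 genes of all kinds in combination against untreated and 1283 in combination against anti-IL-1R1, and limma voom 1 and 143. Of all tested genes, edgeR called 0.0617% in combination against untreated, 0.00515% in combination against CD40 agonist, 2.44% in combination against anti-IL-1R1, and 0% in CD40 agonist against untreated, in anti-IL-1R1 against untreated tumours and in the interaction. The comparison of combination with untreated tumours came nearest: 21 of 98 members had an unadjusted p under 0.05, all of them higher, while 8.73% of all tested genes were higher at that level and 15.5% passed it in either direction. At that level DESeq2 gave 20 members, all higher, where 14.8% of all genes passed in either direction and 7.62% were higher. Limma voom gave 17, all higher, where 17.3% of all tested genes passed in either direction and 7.75% were higher. The lowest adjusted p among members was 0.150, for Uqcr10. Groups did not overlap for 37 higher members, where 10.7% of all tested genes were higher without overlap, and for 2 lower members, Ndufb11 and Atp5d, where 11.7% of all tested genes were lower without overlap. The median log2 fold change was 0.27 over the nuclear members and 0.24 over the mitochondrially encoded ones, beside 0.00 over all tested genes. Leaving out 1 library at a time, the number at an unadjusted p under 0.05 ran from 7 to 32. It was 9 without combination 3 (9 higher, beside 6.16% of all tested genes higher), 9 without untreated 1 (9 higher, beside 5.33%), and 7 without untreated 2 or untreated 3 (7 higher, beside 5.53% and 5.57%), so that with 7 the share of members lay close to that of all genes. Without combination 2 it was 32, of which 28 were higher, beside 11.2% of all tested genes.

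**Figure D1:**
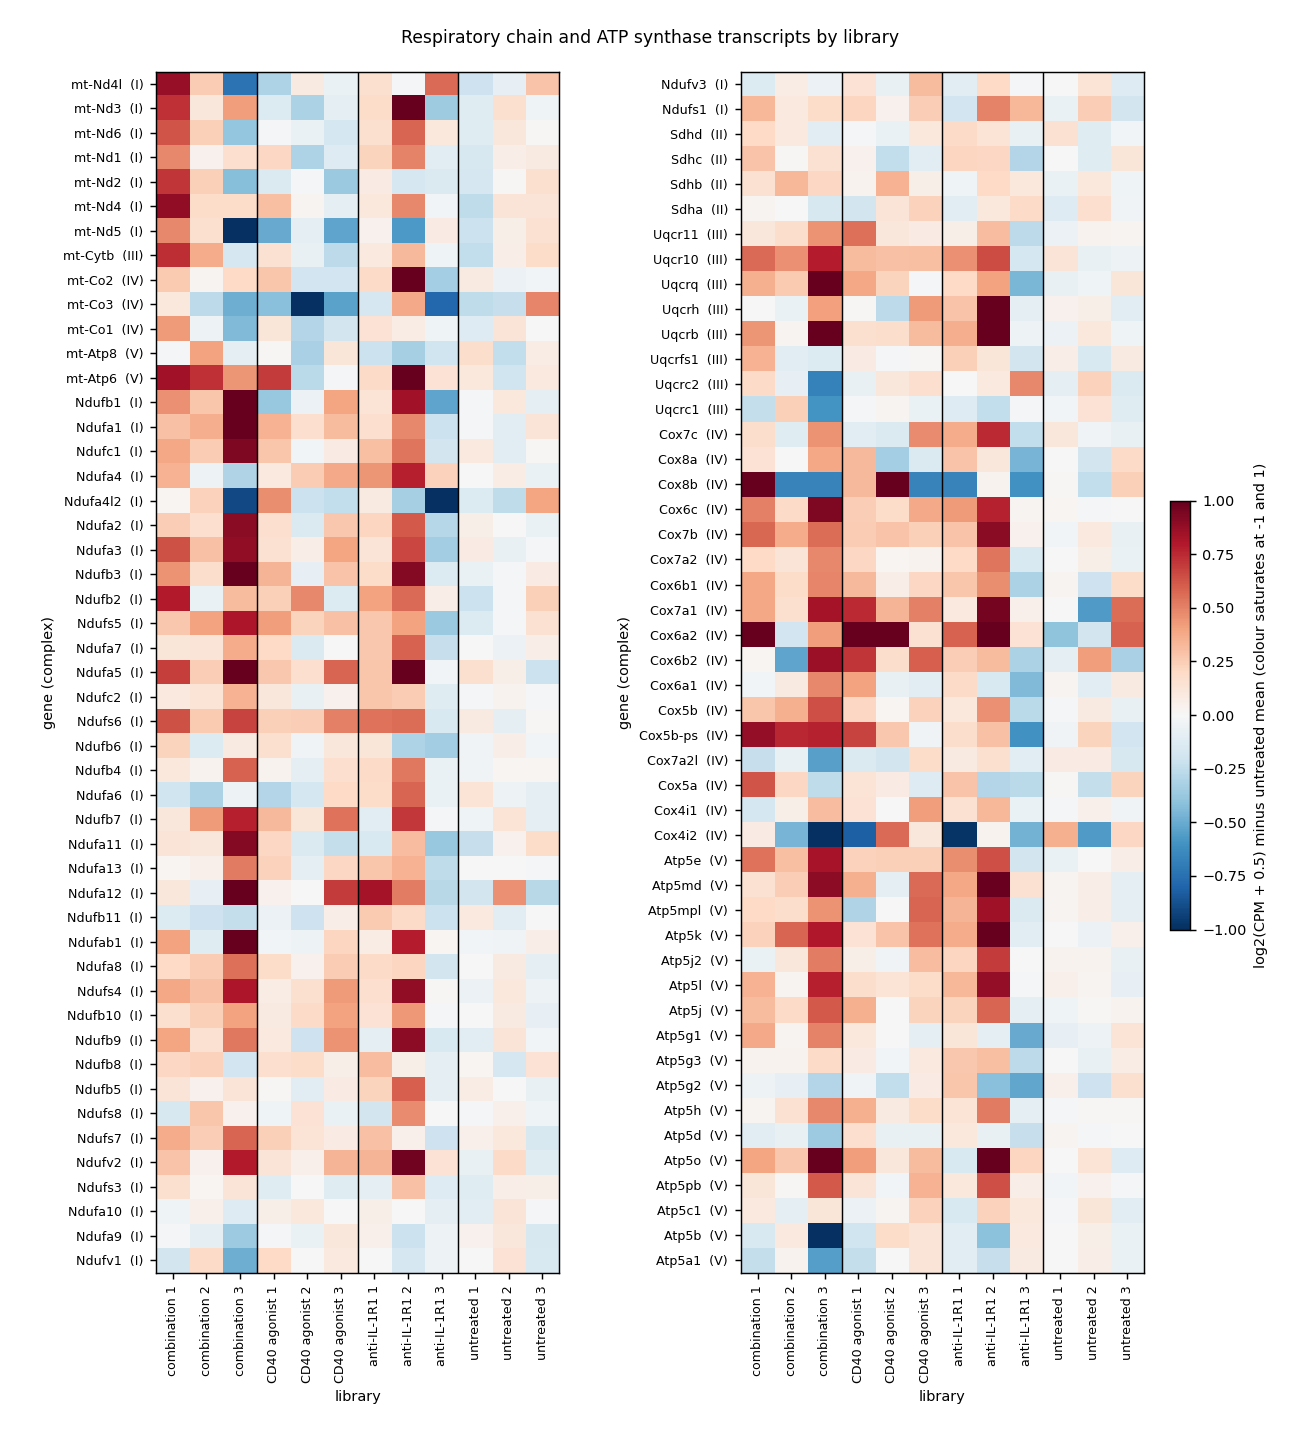
Level of 97 of the 98 subunit genes in each of the 12 libraries, as log2(CPM + 0.5) minus the mean of the 3 untreated libraries. Genes are sorted by genome, complex and coding length, with the complex in brackets. Combination 3 and anti-IL-1R1 2 are the reddest columns among nuclear genes: they were the highest library for 30 and 26 of the 85 nuclear genes.

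In CD40 agonist against untreated tumours, 1 member, mt-Co3, had an unadjusted p under 0.05, a level passed by 2.41% of all tested genes. Nuclear members had a median log2 fold change of 0.13, with 15 higher members without overlap (5.15% of all tested genes), and 1 lower, mt-Co3 (5.81% of all tested genes). The mitochondrially encoded members had a median of -0.11, beside 0.01 over all tested genes. In anti-IL-1R1 against untreated tumours, 5 members had an unadjusted p under 0.05, where 1.56% of all tested genes did: Ndufa4, Cox7b, Ndufv2, Atp5md and Cox6c, all with higher values. This number was 0 without anti-IL-1R1 2 or untreated 3 (0.758% and 0.836% of all tested genes), 1 without untreated 1 (0.741%) and 3 without untreated 2 (1.7%). It was 8 without anti-IL-1R1 1 or combination 3 (3.72% and 2.63% of all tested genes) and 24 without anti-IL-1R1 3 (2.09%). All were higher but 1 of the 8 without anti-IL-1R1 1. No overlap was found for 5 higher members (4.84% of all tested genes) and for 0 lower members (4.99% of all tested genes). The medians were 0.17 over nuclear and 0.19 over mitochondrially encoded members, beside 0.00 over all tested genes.

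Set against CD40 agonist alone, the combination had 1 member with an unadjusted p under 0.05, Ndufb1, where 6.64% of all tested genes passed that level. There were 8 higher members without overlap (3.56% of all tested genes) and 1 lower, Atp5d (5.02% of all tested genes). Each of the 13 mitochondrially encoded members had a positive log2 fold change, with a median of 0.41. That median was 0.048 without combination 1 and CD40 agonist 2, and the nuclear median was 0.16 with all libraries. Against anti-IL-1R1 alone, 6 members of the combination had an unadjusted p under 0.05, where 14.6% of all tested genes did. Only Cox5b-ps and mt-Atp8 were higher without overlap (8.8% of all tested genes), and mt-Atp8 was under 1 CPM in every library. No member was lower without overlap (8.29% of all tested genes). In this comparison 474 genes of all kinds were called, but 0 without any single anti-IL-1R1 library, 3 without combination 3, and 197 to 221 without 1 of the untreated libraries. The lowest adjusted p among members was 0.163 with all libraries. For the interaction, which is the anti-IL-1R1 effect with CD40 agonist minus that without it, 1 member had an unadjusted p under 0.05, where 4.37% of all tested genes did. That member was Ndufa4, at -0.73 ± 0.261 (log2, SE; adjusted p = 1.00 by the edgeR quasi-likelihood test with Benjamini-Hochberg adjustment). The comparisons share libraries, so their values are not independent of each other.

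The intervals show what sizes the data leave. For combination against untreated tumours, the 95% interval of the log2 fold change lay within a 2-fold change in both directions for 72 of 98 members, and for CD40 agonist against untreated tumours for 87. It did so for 76 members in anti-IL-1R1 against untreated tumours, for 79 in combination against CD40 agonist and for 86 in combination against anti-IL-1R1. The half-width of the interval had a median of 0.44 on the log2 scale over all members in each of these comparisons.

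Among the mitochondrially encoded genes, mt-Co1, the catalytic subunit of complex IV, was the most abundant. It had 11106, 7982 and 6081 CPM in combination libraries, 8999, 6731 and 7261 CPM in CD40 agonist libraries, 9135, 8700.05 and 8026 CPM in anti-IL-1R1 libraries, and 7553, 9044 and 8251 CPM in untreated libraries. Combination 1 was the highest and combination 3 the lowest of the 12, so that the combination group spanned the other groups. The complex I genes mt-Nd1, mt-Nd2, mt-Nd4 and mt-Nd5, the complex III gene mt-Cytb and the light-strand gene mt-Nd6 followed, with means over 12 libraries from 243 CPM upwards. At the other end, mt-Atp8, a small ATP synthase subunit, was under 1 CPM in every library, and mt-Nd4l was at 0.748 to 3.30 CPM.

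**Figure D2:**
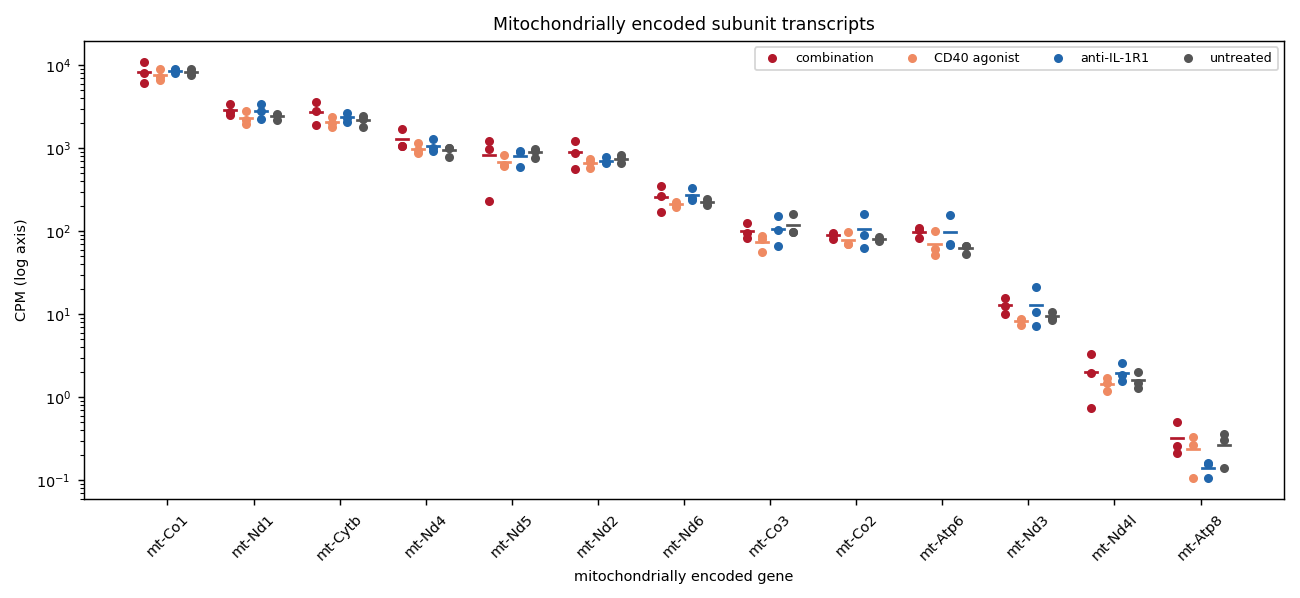
CPM on a log axis of the 13 mitochondrially encoded genes, sorted by their mean level. Each point is a library and each bar the mean of a group of 3. The groups lie on top of each other for most genes, with combination 3 lowest of the 12 for mt-Nd5 at 234 CPM.

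The levels of 5 mitochondrial genes have to be read with their copies on chromosome 1. Transcripts Gm10925, Gm28661, Gm28437, Gm28438 and Gm10222 of GENCODE M21 are identical over 678, 681, 783, 342 and 294 bases to mt-Atp6, mt-Co2, mt-Co3, mt-Nd3 and mt-Nd4l. Their reads amounted to 1.03, 0.683, 0.739, 0.564 and 0.879 times the reads of the mitochondrial gene over the 12 libraries. Gm29216 matches mt-Co1 over 483 bases with 1 difference and Gm28439 matches mt-Nd4 over 876 bases, and their reads were 0.00762 and 0.00871 times those of the gene. Gm10925 is also identical to mt-Atp8 over 43 bases. Per kilobase of the deposited gene length, mt-Co1 averaged 5333 CPM, while mt-Co2 and mt-Co3, which encode subunits of the same complex, averaged 129 and 128 CPM. How reads matching both places were counted is not given here, and its part in these levels was not tested. Adding the copies' reads moved the summed level of the 13 genes by less than the spread between replicates. That sum is dominated by mt-Co1, mt-Nd1 and mt-Cytb, so it cannot show how far the levels of the 5 genes depend on their copies. A stretch of 60 bases is shown for a pair with a difference and for a pair without one. In the pair from mt-Co1 (GRCm38, chrM:6390-6449, plus strand) and Gm29216 (chr1:24616129-24616188, minus strand) the capital marks the only base that differs, and in the pair from mt-Co2 (chrM:7323-7382, plus strand) and Gm28661 (chr1:24615196-24615255, minus strand) no base differs. The sequences are from GENCODE M21 transcripts, 5′ to 3′.
mt-Co1: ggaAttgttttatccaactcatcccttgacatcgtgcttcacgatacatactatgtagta
Gm29216: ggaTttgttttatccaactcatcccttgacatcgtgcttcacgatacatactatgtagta
mt-Co2: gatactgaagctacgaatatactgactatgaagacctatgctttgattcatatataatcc
Gm28661: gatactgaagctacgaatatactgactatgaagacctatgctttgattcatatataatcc

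Summed over the 13 genes, mitochondrially encoded transcripts reached 22970, 16769 and 13011 CPM in combination libraries, 17158, 13658 and 13765 CPM in CD40 agonist libraries, 17508, 18205 and 15364 CPM in anti-IL-1R1 libraries, and 14209, 17019 and 16672 CPM in untreated libraries. The highest and the lowest sum of the study both belonged to the combination group. Group means were 17583 ± 5029 CPM in the combination, 14860.3 ± 1990.4 CPM with CD40 agonist, 17025 ± 1481 CPM with anti-IL-1R1 and 15967 ± 1532 CPM in untreated tumours (SD, n = 3 each), which differ by less than the spread within the combination group. The ratio of the mitochondrial to the nuclear sum was 2.02 ± 0.631 in the combination, 1.74 ± 0.271 with CD40 agonist, 1.95 ± 0.0836 with anti-IL-1R1 and 1.98 ± 0.192 in untreated tumours.

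The largest mitochondrial difference by rank of p was that of mt-Co3, a core subunit of complex IV. It had 86.8, 55.9 and 79.9 CPM in CD40 agonist libraries, against 96.9, 98.7 and 163 CPM in untreated libraries. All 3 treated libraries were below all untreated ones, and untreated 3 was the highest of the 12. The log2 fold change was -0.69 ± 0.295 (SE; unadjusted p = 0.0365, adjusted p = 1.00 in the edgeR fit). The gene mt-Atp6, the proton channel subunit of ATP synthase, had 111, 103 and 84.1 CPM in combination libraries, against 66.4, 53.7 and 66.1 CPM in untreated libraries. These groups did not overlap either, with a log2 fold change of 0.68 ± 0.313 and an adjusted p of 0.321. Both genes are among those with an identical copy on chromosome 1.

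The gene mt-Nd5, a proton-pumping subunit of complex I, varied widely between libraries. It had 1236, 993 and 234 CPM in combination libraries, 625.5, 833 and 616 CPM in CD40 agonist libraries, 914, 595 and 939.9 CPM in anti-IL-1R1 libraries, and 765, 924 and 984 CPM in untreated libraries. The low value of combination 3 stood beside an mt-Nd1 level of 2718 CPM in the same library, inside the range of the other libraries. The complex I gene mt-Nd3 had 15.8, 10.2 and 12.7 CPM in combination libraries, against 8.48, 7.43 and 8.77 CPM in CD40 agonist libraries. It was the only mitochondrial gene whose groups did not overlap in this comparison (log2 fold change 0.65 ± 0.330, adjusted p = 0.780 in the edgeR fit).

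Of the nuclear genes, 39 belong to complex I, 4 to complex II, 8 to complex III and 17 each to complex IV and ATP synthase, with Ndufa4 and Ndufa4l2 counted by name under complex I. Per kilobase of gene length, the most abundant member was Ndufa2 at 162 CPM in complex I, Sdhd at 90.3 CPM in complex II, Uqcrh at 133 CPM in complex III, Cox8a at 447 CPM in complex IV and Atp5a1 at 263 CPM in ATP synthase. The least abundant were Ndufb2 at 0.881, Sdhb at 34.8, Uqcrc2 at 27.1, Cox6b2 at 0.394 and Atp5l at 9.54 CPM per kilobase. In untreated tumours the nuclear members were steady: the SD of log2 CPM had a median of 0.0962 over the 78 nuclear members with at least 10 CPM, beside 0.132 over 9809 other genes at that level. In the treated groups it was 0.245 in the combination (other genes 0.296), 0.147 with CD40 agonist (0.200) and 0.340 with anti-IL-1R1 (0.256).

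Complex I takes electrons from NADH, and its 39 nuclear genes had a median log2 fold change of 0.27 in combination against untreated tumours, with 32 higher and 7 lower. The 7 nuclear core subunits, which carry the flavin and the iron-sulphur clusters, had a median of 0.10, and the 32 supernumerary subunits a median of 0.36. Ndufa1, a small supernumerary subunit, had 37.5, 39.4 and 68.8 CPM in combination libraries, against 30.1, 28.3 and 33.4 CPM in untreated libraries. Combination 3 was far above the other combination libraries, and no value overlapped with untreated tumours (log2 fold change 0.67 ± 0.235, adjusted p = 0.195 in the edgeR fit). Ndufa3, another supernumerary subunit, had 62.4, 49.1 and 74.5 CPM in combination libraries, against 42.4, 38.1 and 39.8 CPM in untreated libraries. Again the groups did not overlap, at 0.63 ± 0.229 (adjusted p = 0.209).

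Of the 7 core subunits, 6 had higher values in combination than in untreated tumours and 1 had lower values. The lower one was Ndufv1, which binds NADH, with 87.0, 113 and 70.5 CPM in combination libraries, against 99.3, 109 and 89.0 CPM in untreated libraries, with overlap. Ndufs7, a core subunit with an iron-sulphur cluster, had 74.8, 68.3 and 86.5 CPM in combination libraries, against 59.8, 62.0 and 51.5 CPM in untreated libraries. It was the only core subunit without overlap in this comparison (log2 fold change 0.41 ± 0.159, adjusted p = 0.241 in the edgeR fit).

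Ndufb1 had 29.0, 25.5 and 55.5 CPM in combination libraries, 16.0, 20.1 and 27.7 CPM in CD40 agonist libraries, and 20.8, 22.6 and 19.6 CPM in untreated libraries. Combination 3 was the highest library, and the combination overlapped with CD40 agonist but not with untreated tumours. Its log2 fold change was 0.79 ± 0.354 against CD40 agonist (adjusted p = 0.742) and 0.80 ± 0.354 against untreated tumours (adjusted p = 0.296), both by the edgeR quasi-likelihood test. Ndufb11, an X-linked supernumerary subunit, was lower without overlap, with 105, 101 and 98.5 CPM in combination libraries, against 125, 108 and 117 CPM in untreated libraries.

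Ndufa4 was first described in complex I and is now placed in complex IV, and Ndufa4l2 is its hypoxia-inducible paralogue. Ndufa4 had 113, 86.1 and 72.4 CPM in combination libraries, 95.2, 107 and 116 CPM in CD40 agonist libraries, 122, 153 and 105 CPM in anti-IL-1R1 libraries, and 88.8, 93.9 and 84.9 CPM in untreated libraries. Both single-antibody groups lay above untreated tumours without overlap, while the combination overlapped with every group. Its log2 fold change was 0.50 ± 0.185 for anti-IL-1R1 against untreated tumours (unadjusted p = 0.0166) and 0.02 for combination against untreated tumours. Ndufa4l2 had 14.4, 16.7 and 7.33 CPM in combination libraries, 19.7, 12.2 and 11.9 CPM in CD40 agonist libraries, 15.1, 11.2 and 6.73 CPM in anti-IL-1R1 libraries, and 12.8, 11.8 and 18.7 CPM in untreated libraries. All 4 groups overlapped for this paralogue.

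Complex II, succinate dehydrogenase, also works in the citric acid cycle, and it is encoded by 4 genes. Sdha, the flavoprotein, had 146, 143 and 127 CPM in combination libraries, against 130.3, 160.2 and 139 CPM in untreated libraries. Sdhb, the iron-sulphur subunit, had 79.3, 90.3 and 82.4 CPM in combination libraries, against 68.3, 76.9 and 69.5 CPM in untreated libraries. Sdhb was the only one of the 4 without overlap, and the log2 fold changes of the 4 genes ran from -0.05 to 0.23. The membrane anchors Sdhc and Sdhd had log2 fold changes of 0.15 and 0.07, and all 4 intervals lay within a 2-fold change.

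Complex III hands electrons to cytochrome c. Its small subunit Uqcr10 (mm39, chr11:4651973-4654342, minus strand) had the lowest p of all members, with 59.4, 55.0 and 69.4 CPM in combination libraries, 50.0, 49.1 and 49.2 CPM in CD40 agonist libraries, 55.1, 63.1 and 35.4 CPM in anti-IL-1R1 libraries, and 43.8, 37.9 and 38.6 CPM in untreated libraries. The combination lay above CD40 agonist, and both lay above untreated tumours, with no overlap, while anti-IL-1R1 ran from below all untreated libraries to above 2 of the 3 combination libraries. The log2 fold change of combination against untreated tumours was 0.61 ± 0.191 (unadjusted p = 0.00654, adjusted p = 0.150 in the edgeR fit). Uqcrq, another small subunit, had 83.8, 78.7 and 157 CPM in combination libraries, against 62.3, 63.4 and 71.2 CPM in untreated libraries, without overlap. The large core proteins Uqcrc1 and Uqcrc2 had log2 fold changes of -0.17 and -0.16, both with overlap. Cyc1, the cytochrome c1 of the same complex that the name rule left out, had a log2 fold change of 0.01, and its partner Cycs, cytochrome c, one of 0.76 ± 0.184 (adjusted p = 0.0919).

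Complex IV, cytochrome c oxidase, has nuclear subunits that exist in tissue-specific pairs, and these gave the largest ratios between single libraries. Cox6a2, the heart and skeletal muscle form, had 57.0, 0.0800 and 0.385 CPM in combination libraries, 1.14, 21.04 and 0.235 CPM in CD40 agonist libraries, 0.497, 0.951 and 0.233 CPM in anti-IL-1R1 libraries, and 0, 0.0847 and 0.495 CPM in untreated libraries. Cox8b, the other muscle form, had 14.2, 0 and 0 CPM in combination libraries, 0.497, 7.89 and 0 CPM in CD40 agonist libraries, 0, 0.317 and 0.0233 CPM in anti-IL-1R1 libraries, and 0.302, 0.169 and 0.440 CPM in untreated libraries. Only combination 1 and CD40 agonist 2 held more than 1.14 CPM of Cox6a2 or more than 0.497 CPM of Cox8b, so neither gene separated the groups.

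The same 2 libraries held other skeletal muscle transcripts. The 17 genes of 18 listed muscle genes that were in the tables summed to 5669 CPM in combination 1 and 2907 CPM in CD40 agonist 2. Elsewhere this sum ran from 6.64 to 13.0 CPM in the other combination libraries, from 7.29 to 87.8 CPM with CD40 agonist, from 11.2 to 85.9 CPM with anti-IL-1R1 and from 8.41 to 29.1 CPM in untreated tumours. The fast myosin gene Myh4 was at 502 and 373 CPM in the 2 libraries and at 0 in 5 of the others. The log2 fold change of Cox6a2 was 5.32 for CD40 agonist against untreated tumours and 1.90 without CD40 agonist 2, with adjusted p of 1.00 by edgeR in both fits. How far other members took part in the muscle signal of these libraries was not tested.

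The widely expressed partners were far more abundant, and for Cox6a1 and Cox8a the 4 groups overlapped. Cox6a1 had 181, 196 and 258 CPM in combination libraries, 245, 175 and 172 CPM in CD40 agonist libraries, 211, 166 and 136 CPM in anti-IL-1R1 libraries, and 188, 171 and 197 CPM in untreated libraries. Cox8a had 295, 269 and 350 CPM in combination libraries, 335, 212 and 242 CPM in CD40 agonist libraries, 326, 289 and 193 CPM in anti-IL-1R1 libraries, and 266, 235 and 306 CPM in untreated libraries. Cox7a1, also a muscle and heart form, was at 0.509 to 2.39 CPM in all libraries and did not stand out in the 2 muscle-rich ones, while Cox7a2 was at 87.2 to 141 CPM. Cox7a2 had 111, 106 and 136 CPM in combination libraries, against 97.2, 101 and 92.5 CPM in untreated libraries, without overlap. Cox4i2, known from lung and for its oxygen-dependent expression, was at 0.107 to 1.34 CPM, beside 297 to 449 CPM of Cox4i1, and the testis form Cox6b2 was under 1 CPM in every library.

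**Figure D3:**
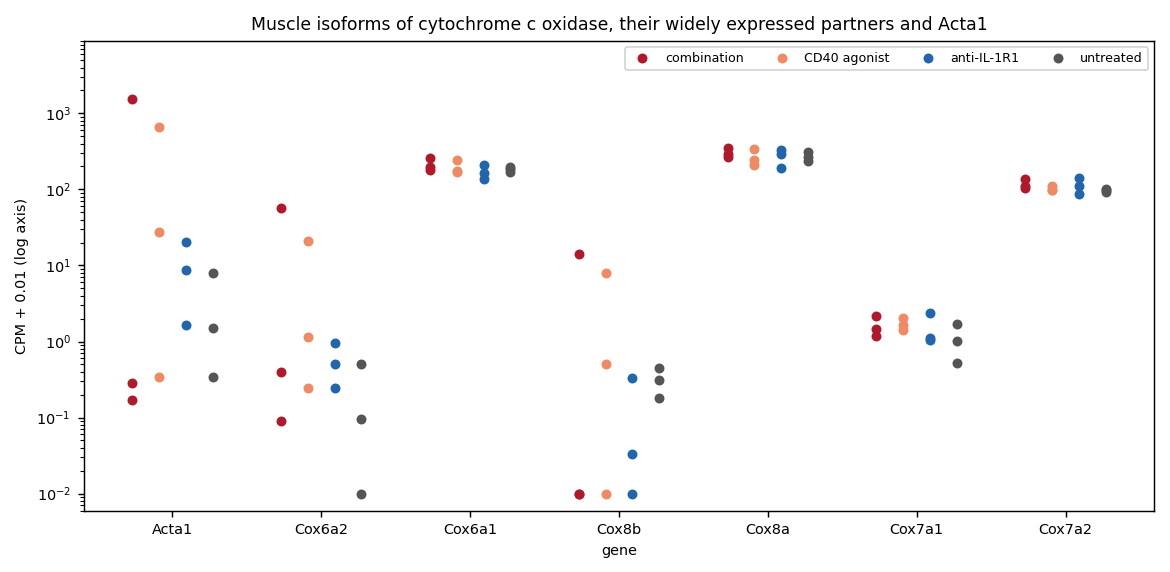
CPM + 0.01 on a log axis of the muscle forms Cox6a2, Cox8b and Cox7a1, their widely expressed partners and the skeletal muscle actin Acta1, 1 point per library. Combination 1 and CD40 agonist 2 are the isolated high points of Acta1 (1562 and 655 CPM), Cox6a2 and Cox8b.

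The 250 bases before the RefSeq start of the muscle form Cox8b (GRCm38.p6, chr7:140900447-140900696, minus strand) and of its widely expressed partner Cox8a (chr19:7217617-7217866, minus strand) are shown 5′ to 3′ as an isoform pair of which the muscle form stood out in the 2 muscle-rich libraries. Capitals mark the E-box form CAGCTG, 1 form of the E-box CANNTG, which muscle regulators of the MyoD family bind. CAGCTG was searched on both strands, is found at 1 position before Cox8b and at 0 before Cox8a, and 13.0% of 32851 windows of this length hold it. The wider CANNTG has 1 position in each of the 2 windows and is in 66.2% of all windows. A MEF2 motif, in 2.92% of all windows, was found in neither. Among the 69 nuclear members with a RefSeq entry, 6 held CAGCTG, 43 held CANNTG and 0 the MEF2 motif, while 12 held the motif of NRF1, a regulator of respiratory genes, which is in 3.74% of all windows. A match is a description of letters, not of binding.
Cox8b: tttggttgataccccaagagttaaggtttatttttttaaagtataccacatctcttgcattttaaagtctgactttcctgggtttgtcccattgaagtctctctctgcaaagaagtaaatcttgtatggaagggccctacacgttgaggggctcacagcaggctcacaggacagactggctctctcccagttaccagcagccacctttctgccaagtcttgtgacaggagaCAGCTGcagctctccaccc
Cox8a: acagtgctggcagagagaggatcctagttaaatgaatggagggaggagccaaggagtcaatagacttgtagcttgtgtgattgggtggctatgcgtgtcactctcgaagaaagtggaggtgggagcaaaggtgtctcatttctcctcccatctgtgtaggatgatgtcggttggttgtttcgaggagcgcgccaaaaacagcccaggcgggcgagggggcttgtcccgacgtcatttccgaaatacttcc

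Among the other complex IV genes, Cox6c, a small membrane subunit, had 168, 136 and 226 CPM in combination libraries, 140.4, 135 and 154 CPM in CD40 agonist libraries, 159, 202 and 121 CPM in anti-IL-1R1 libraries, and 120.2, 117 and 118 CPM in untreated libraries. Each treated group lay above the untreated libraries without overlap, with anti-IL-1R1 3 just above untreated 1. The log2 fold changes were 0.58 ± 0.204 for the combination (adjusted p = 0.195 in the edgeR fit), 0.27 for CD40 agonist and 0.44 for anti-IL-1R1. Cox7b, another small subunit, had 107, 92.8 and 106 CPM in combination libraries, against 70.4, 76.8 and 68.3 CPM in untreated libraries, without overlap. Cox5b-ps had 13.7, 12.5 and 12.7 CPM in combination libraries, 8.23, 8.95 and 4.59 CPM in anti-IL-1R1 libraries, and 7.05, 8.53 and 6.27 CPM in untreated libraries. It was higher without overlap in both comparisons, but it has the same coding length as Cox5b, 387 bases, and the division of reads between the 2 is uncertain. Cox7a2l, a supercomplex factor, had 185, 205 and 148 CPM in combination libraries, against 229, 229 and 193 CPM in untreated libraries, with overlap.

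In ATP synthase, 13 of 17 nuclear genes were higher and 4 lower in combination than in untreated tumours, with a median log2 fold change of 0.27. Atp5b, the catalytic beta subunit, had 639, 759 and 339 CPM in combination libraries, 618, 805 and 775 CPM in CD40 agonist libraries, 654, 533 and 758.5 CPM in anti-IL-1R1 libraries, and 711, 738 and 678 CPM in untreated libraries. Combination 3 was the lowest of the 12, and the groups overlapped (log2 fold change of combination against untreated tumours -0.29 ± 0.246, adjusted p = 0.595 in the edgeR fit). Atp5a1, the alpha subunit of the same head, had a log2 fold change of -0.23 in this comparison. Atp5e, the epsilon subunit of the central stalk, had 107, 90.6 and 131 CPM in combination libraries, against 70.1, 73.8 and 77.1 CPM in untreated libraries, without overlap (0.57 ± 0.197, adjusted p = 0.187). Atp5d, the delta subunit beside it, was lower without overlap, with 166, 171 and 139.8 CPM in combination libraries, against 183, 177 and 179.7 CPM in untreated libraries.

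Atp5md, a small membrane subunit that helps ATP synthase form dimers, had 109, 165 and 92.4 CPM with anti-IL-1R1, and 84.6, 87.3 and 78.0 CPM in untreated tumours. The groups did not overlap, at a log2 fold change of 0.55 ± 0.246 (unadjusted p = 0.0419, adjusted p = 1.00 in the edgeR fit). The genes Atp5g1, Atp5g2 and Atp5g3 encode the same mature ring subunit. They had log2 fold changes of 0.31, -0.14 and 0.09 in combination against untreated tumours, and the groups overlapped for all 3.

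Across complexes, the fitted difference followed the length of the coding sequence. In combination against untreated tumours, 45 of 49 nuclear members with a coding length of at most 450 bases had higher values, with a median log2 fold change of 0.42. Of 11 members over 900 bases, among them Atp5a1, Atp5b, Uqcrc1, Uqcrc2, Sdha and Ndufs1, 2 had higher values, with a median of -0.14. Other protein coding genes had medians of 0.17 at up to 450 bases and -0.01 over 900 bases. The Spearman correlation of log2 fold change with coding length was -0.55 across 82 nuclear members and -0.12 across 12714 other genes. The pattern was not limited to this comparison. Across the nuclear members the correlation was -0.39 in anti-IL-1R1 and -0.43 in CD40 agonist against untreated tumours. In the combination it was -0.46 against CD40 agonist and -0.36 against anti-IL-1R1, and for the interaction it was -0.10. All these values describe genes that share the same libraries, and genes are not replicates.

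**Figure D4:**
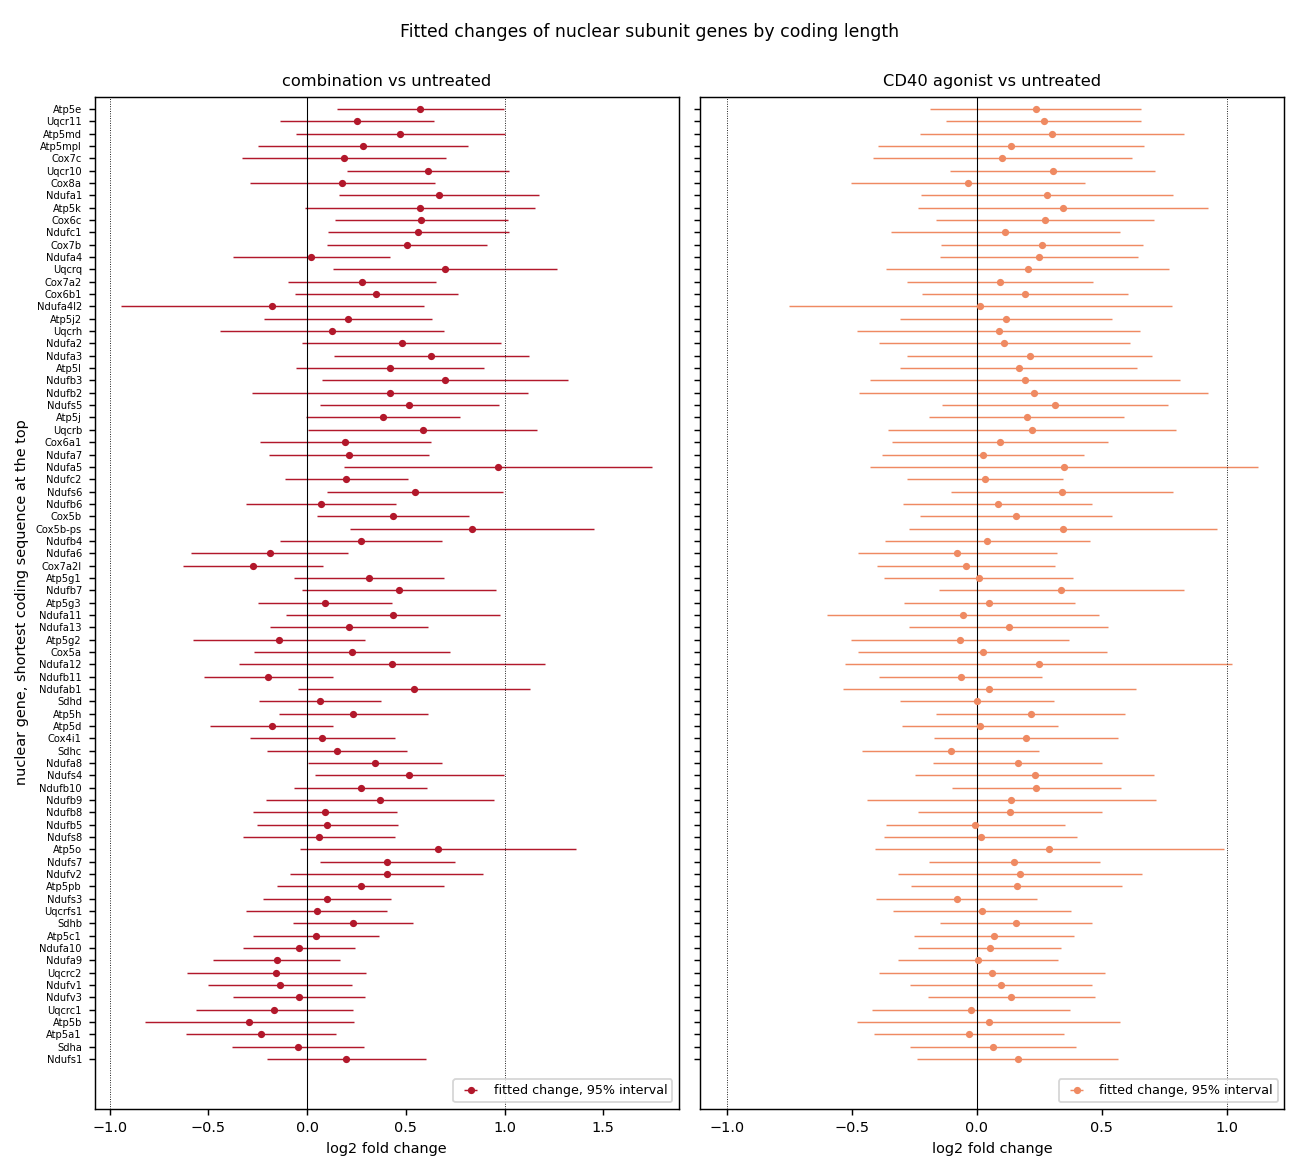
Fitted log2 fold changes with 95% intervals of nuclear members, sorted by coding length with the shortest at the top, for combination (left) and CD40 agonist (right) against untreated tumours. Dotted lines mark a 2-fold change. Cox6a2, Cox8b, Cox4i2, Cox6b2 and Cox7a1 with their low counts, Ndufb1 without a coding length, and 1 other member are not drawn. Points near the top of the left panel lie mostly above 0 and those at the bottom at or below it, with medians of 0.42 up to 450 bases and -0.14 over 900 bases.

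The length pattern differed between libraries of 1 group. In combination 3, members with a coding length of at most 300 bases deviated from the untreated mean by a median of 0.54 on the log2 scale and those over 1500 bases by -0.36. In combination 2 the same values were 0.18 and 0.07. In anti-IL-1R1 2 they were 0.66 and -0.07, and in anti-IL-1R1 3 they were -0.18 and 0.14. Anti-IL-1R1 3 had the lowest level of 37 of the 85 nuclear members, and combination 3 had the highest level of 30 and the lowest of 14. Without combination 3, the medians of combination against untreated tumours were 0.21 up to 450 bases and 0.01 over 900 bases, and without combination 3 and anti-IL-1R1 2 the median of all nuclear members was 0.14. With the trend of each library over coding length removed, the nuclear median was 0.15. In that fit the medians were 0.27 up to 450 bases and -0.14 over 900 bases. By edgeR, 19 members then had an unadjusted p under 0.05, beside 18.1% of all tested genes. Of these members 17 were higher, beside 10.7% of all tested genes. The part of RNA quality in this pattern was not tested.

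**Figure D5:**
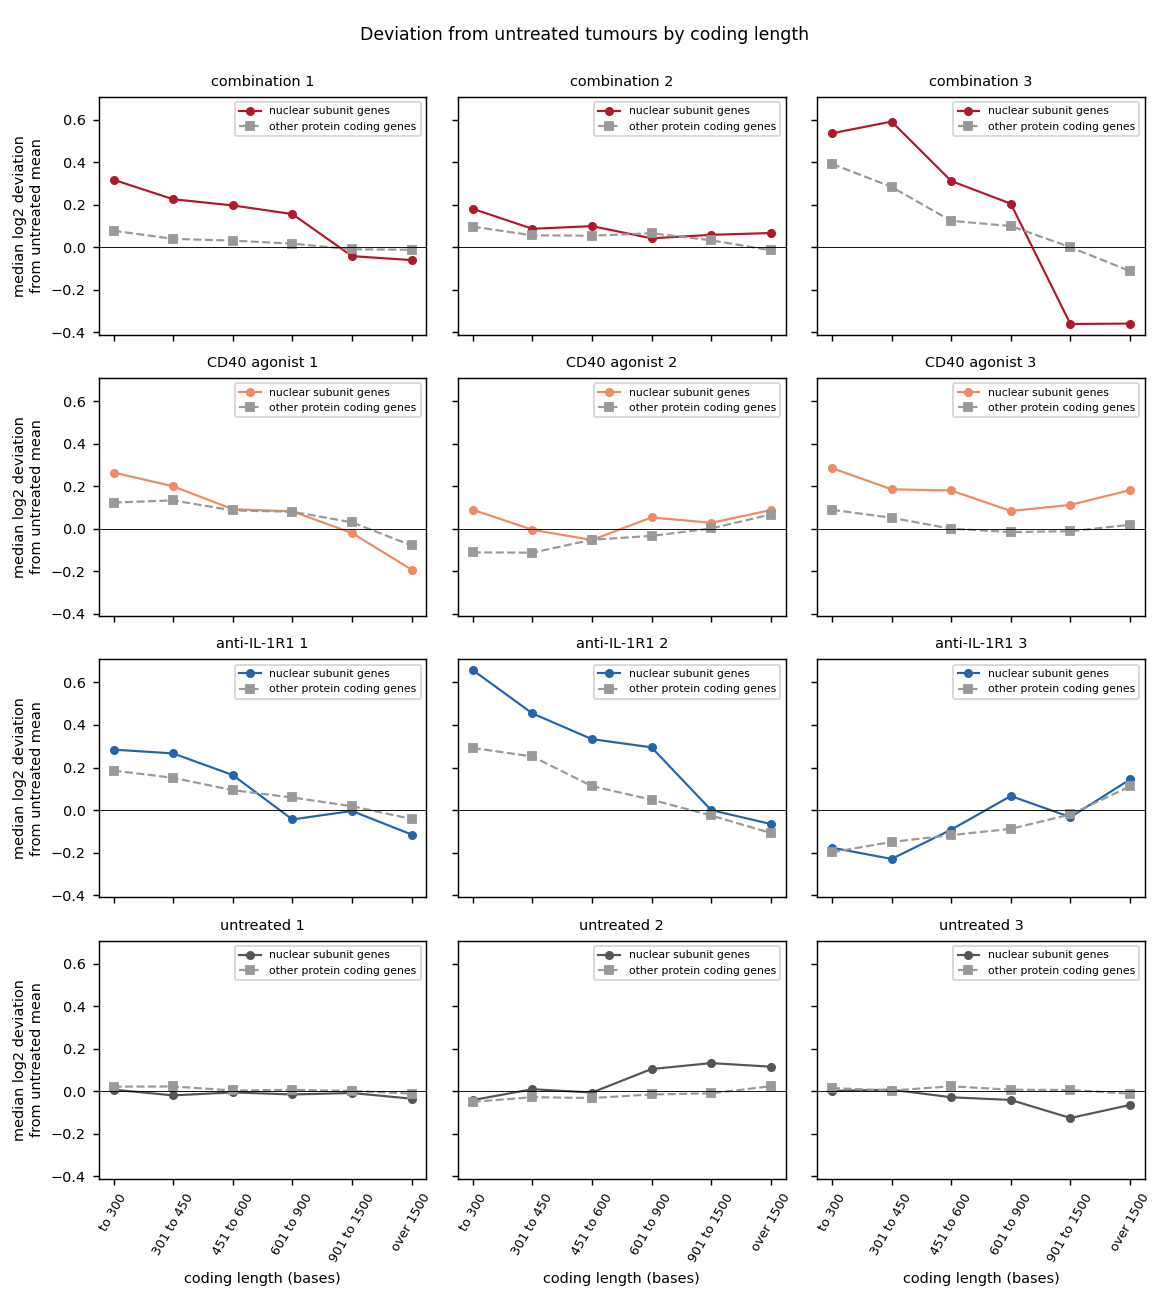
Median log2 deviation from the untreated mean by class of coding length, 1 panel per library. Solid lines are nuclear subunit genes and dashed lines other protein coding genes. The lines fall most steeply in combination 3 and anti-IL-1R1 2 and slope upwards in anti-IL-1R1 3. Those of the untreated libraries lie around 0 by definition, because the deviation is taken from their own mean.

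The wider mitochondrial programme was followed with lists of other genes. Of the assembly factors, 16 for complex I, 4 for complex II, 6 for complex III, 22 for complex IV and 4 for ATP synthase were tested, and edgeR called 0 of them in each of the 6 comparisons. In combination against untreated tumours their unadjusted p was under 0.05 for 1, 0, 1, 1 and 0 genes. Of all tested genes, 15.5% passed that level and 0.0617% were called in this comparison, to which the counts below also belong. Of 77 mitochondrial ribosomal protein genes, which translate the mitochondrially encoded members, 0 were called. An unadjusted p under 0.05 was found for 9 of the 77, beside the 15.5% of all tested genes. Their median log2 fold change was 0.17, with Mrpl27 at 0.59 and Mrps7 at 0.44. The 17 citric acid cycle genes had a median of 0.00, and 0 were called. The 10 tested regulators of mitochondrial biogenesis had a median of -0.03 and 0 calls, and the 19 tested genes of mitochondrial DNA expression a median of 0.19 and 0 calls. The first regulator list had 1 gene with an unadjusted p under 0.05 and the second had 1. The 11 listed coenzyme Q genes and the 7 tested genes of ATP exchange had medians of 0.13 and 0.02 and 0 calls. The 16 genes of mitochondrial dynamics and mitophagy had a median of 0.08 and 0 calls. Against anti-IL-1R1, 11 of these 16 were lower and 5 higher. There 1 was called lower (adjusted p = 0.0346 in the edgeR fit), beside 2.44% of all tested genes called. Without any 1 anti-IL-1R1 library, 0 genes of any kind were called there.

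Genes of hypoxia and glycolysis, the pathway that makes ATP without the respiratory chain, had lower values. All 22 tested genes were lower in combination than in untreated tumours, with a median log2 fold change of -0.65. An unadjusted p under 0.05 was found for 13 of them, where 15.5% of all tested genes passed that level. Of the 22, 1 passed the adjusted threshold, where 0.0617% of all tested genes did. It was Car9, the carbonic anhydrase induced by low oxygen, which fell by 2.07 on the log2 scale (adjusted p = 0.0395 in the edgeR fit). Its levels were 19.2, 47.4 and 28.5 CPM in combination libraries, against 169, 119 and 111 CPM in untreated libraries. Leaving out any anti-IL-1R1 library, any untreated library, CD40 agonist 1 or combination 3 raised the adjusted p of Car9 above the threshold, up to 0.243, at log2 fold changes from -1.87 to -2.20. So did a replicate block (adjusted p = 0.161) and limma voom (adjusted p = 0.0576). Against anti-IL-1R1, Car9 and Pdk1, the kinase that keeps pyruvate out of the citric acid cycle, fell by 1.67 and 0.83 on the log2 scale (adjusted p = 0.0253 and 0.0348 in the edgeR fit). The mitochondrial superoxide dismutase Sod2 rose by 1.31 in that comparison (adjusted p = 0.0253 in the edgeR fit), where 2.44% of all tested genes were called. These 3 calls were lost without any single anti-IL-1R1 library or without combination 3, with adjusted p of at most 0.155 and unchanged signs, and with a replicate block (adjusted p = 0.0684, 0.0694 and 0.0690). That of Pdk1 was also lost without combination 1 or any untreated library (adjusted p from 0.0561 to 0.0624), by limma voom (0.0508) and with only the groups compared (0.0525).

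Marker lists of cell types differed between the same groups in level, with few calls. Of 16 listed epithelial genes, 15 were in the tables, and all 15 had lower values in combination than in untreated tumours (median log2 fold change -0.87). Of these, 1 was called, Epcam, where 0.0617% of all tested genes were, and 4 were called lower in combination against anti-IL-1R1, where 2.44% were. The list summed to 2575 to 3545 CPM in combination, 4013 to 5798 CPM in CD40 agonist, 4440 to 5363 CPM in anti-IL-1R1 and 4149.5 to 5787 CPM in untreated libraries. Epcam was at 0.102, 0 and 0.128 CPM in combination libraries, against 12.9, 4.15 and 2.56 CPM in untreated libraries (adjusted p = 0.0395 by edgeR, 0.163 by limma voom and 0.161 with a replicate block). Its adjusted p was also above 0.05 without anti-IL-1R1 1, anti-IL-1R1 3, combination 3, untreated 1 or untreated 2, up to 0.111. Krt19 was at 220.3 to 495 CPM in combination and at 811 to 1076 CPM in untreated libraries.

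Of 10 macrophage genes, 9 had higher values in combination than in untreated tumours and 0 were called (lowest adjusted p = 0.0706 in the edgeR fit). An unadjusted p under 0.05 was found for 5 of them, where 15.5% of all tested genes passed that level. Against anti-IL-1R1, where 2.44% of all tested genes were called, 3 of the 10 were called higher: Fcgr1, Itgam and C1qa. The 10 genes summed to 1741 to 2627 CPM in combination, 1006 to 2489 CPM in CD40 agonist, 711 to 1043 CPM in anti-IL-1R1 and 906 to 1174 CPM in untreated libraries. As 0 genes of any kind were called against anti-IL-1R1 without any 1 of its libraries, neither these calls nor the epithelial ones in that comparison held there.

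In combination against untreated tumours no gene of the other cell type lists was called. Lymphocyte genes had higher values for 8 of 9, neutrophil genes for 7 of 7, endothelial genes for 5 of 8, fibroblast genes for 4 of 10 and erythroid genes for 0 of 5. Their unadjusted p was under 0.05 for 4, 2, 2, 3 and 4 genes, where 15.5% of all tested genes passed that level. Adipose genes had higher values for 10 of 10 (median log2 fold change 0.74) and brown fat genes for 1 of 5 (median -1.30). Of both these lists, 0 genes passed that level. Adipose genes summed to 81.0 to 186 CPM in combination, against 111 to 144 CPM in untreated libraries, with overlap. Lymphocyte genes summed to 17.7 to 89.5 CPM in combination, against 8.28 to 22.9 CPM in untreated libraries, and neutrophil genes to 128 to 493 CPM, against 46.1 to 139.7 CPM. The erythroid sum was 2.80 to 4.06 CPM in combination and 11.8 to 17.7 CPM in untreated libraries, without overlap. Fibroblast genes summed to 5898 to 19582 CPM in combination, against 14306 to 15784 CPM in untreated libraries, and endothelial genes to 129 to 191 CPM, against 141 to 169.8 CPM, both with overlap. The part of cell composition in the members' levels was not tested.

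The authors' deposited tables give their own tests for 3 of the comparisons. The authors' deposited tables call 0 of the 98 members at an adjusted p under 0.05 in CD40 agonist against untreated, anti-IL-1R1 against untreated and combination against CD40 agonist, where they call 0.0551%, 0.079% and 0.0789% of all listed genes. In the authors' deposited tables the unadjusted p was under 0.05 for 4, 9 and 2 members, beside 4.74%, 3.7% and 3.82% of all genes with a p, and the lowest adjusted p among members were 0.262, 0.713 and 0.852.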

How the data were processed

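Per the file headers, the deposited tables, 3 in number and each on a pair of groups with 6 libraries, hold the authors' raw counts per gene, gene length in bases, log2 fold changes (log2) and p-values of their test. The submitters' processing notes name mm39 and DESeq2. Aligner, counting tool, annotation release and strand setting were not given in the sources. The other 42 columns of values were not used. The tables were joined by gene identifier, and counts of a library present in 2 tables had 0 mismatches.

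Counts of all 12 libraries (27.8 to 53.3 M reads) entered edgeR 4.0.16 (R 4.3.3): filterByExpr, TMM factors, robust quasi-likelihood test, Benjamini-Hochberg adjustment over 19436 genes, called under 0.05. DESeq2 1.42.0 and limma 3.58.1 (voom), other scalings, no filter, a replicate block, only the groups compared, leaving out libraries, and a coding-length offset were alternatives. The biological coefficient of variation was 0.446, with 8 residual degrees of freedom. The edgeR code was run on simulated counts with changes far larger than the medians of the members. That run cannot show whether changes of the members' size would be found. Coding lengths are the longest coding sequence in GENCODE M21, known for 97 members, and are not converted to mm39. Each comparison named up to 6 higher and 6 lower members by lowest p, the mitochondrial genes, isoform partners, extremes of each complex and members under 1 CPM, of which the text gives a selection. Sdh, Ndufv1 and Uqcrc1 values were added for their roles. The values of 1 member are not reported here by name. The members and the 25 lists were chosen with earlier results of these data known. Intervals at 95% come from the fit.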

Additional observations from a re-analysis of the deposited data

How the results depend on the processing

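The number of members called by edgeR was 0 in all 6 comparisons under all alternatives run. Leaving out 1 library at a time, the nuclear median log2 fold change ran from 0.16 to 0.31 for combination against untreated, 0.085 to 0.18 for CD40 agonist against untreated, 0.025 to 0.30 for anti-IL-1R1 against untreated, 0.047 to 0.21 for combination against CD40 agonist, -0.067 to 0.19 for combination against anti-IL-1R1 and -0.20 to 0.079 for the interaction. The mitochondrial median ran from 0.099 to 0.47, -0.19 to -0.052, 0.027 to 0.25, 0.13 to 0.59, -0.19 to 0.23 and -0.060 to 0.32 in the same order. Without combination 1 and CD40 agonist 2, the mitochondrial median was 0.048 for combination against CD40 agonist and -0.14 for the interaction. Without anti-IL-1R1 2 and combination 3, an alternative chosen after seeing the data like the coding-length offset and the added copies, the nuclear median for combination against untreated was 0.14, and the mitochondrial medians were 0.36 for combination against anti-IL-1R1 and 0.46 for the interaction. The cause was not tested.

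Whether numbers in the labels pair the libraries is not stated. Same-numbered deviations correlated at 0.069, 0.078 and 0.118 for anti-IL-1R1 and untreated libraries, each best with its own number, and mostly below 0 in the other comparisons. With 3 libraries a group, these correlations cannot settle whether a number marks a shared batch or day. With a replicate block 0 members were called, the nuclear median for combination against untreated was 0.26, and 0 of all genes were called in combination against anti-IL-1R1, against 474 without the block. Counts over all genes moved with the tool: for combination against untreated tumours it was 12 by edgeR, 1035 by DESeq2, 1 by limma voom, 72 without a filter, 154 with only the groups compared and 0 with the block, and it ran from 0 without untreated 1 or untreated 2 to 550 without combination 2. For combination against anti-IL-1R1 they were 474 by edgeR, 1283 by DESeq2 and 143 by limma voom. DESeq2 called 6 genes for CD40 agonist against untreated, 101 for combination against CD40 agonist and 20 for the interaction, where edgeR called 0, 1 and 0.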
